A study of Mus musculus with 6 samples.

Results

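The Wnt ligand genes described here are Wnt3, Wnt4, Wnt5a, Wnt5b, Wnt6, Wnt7a, Wnt7b, Wnt10a, Wnt10b and Wnt16, 10 of the 18211 genes in the deposited table and 10 of the 18 Wnt genes it holds. They were chosen by gene symbol, and every one has a row. RNA was sequenced from oligodendrocyte precursor cells (OPCs), the dividing glia from which myelinating oligodendrocytes form, taken from C57BL/6 mouse brain at postnatal day 7 by immunopanning on PDGFRα and not cultured. There were 3 libraries from wildtype mice, which carry no CreERT, and 3 from NG2-CreERTM:DISC1 exon3 fl/+ mice, called DISC1-Δ3, and both groups received tamoxifen by gavage from postnatal day 4 to 7. In DISC1-Δ3 mice the NG2 (Cspg4) promoter drives the recombinase, which removes exon 3 from 1 of the 2 Disc1 alleles. The NG2 promoter is also known to be active in pericytes, and the labels do not say how many animals went into a library.

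Wnt ligands are secreted, lipid-modified glycoproteins. The acyltransferase Porcn attaches the lipid, the carrier Wls takes the ligand to the cell surface, and the extracellular enzyme Notum can remove the lipid again. At the receiving cell, ligands bind Frizzled receptors together with Lrp5 or Lrp6 and stabilize β-catenin, or act through β-catenin-independent routes for which Wnt5a is the standard example. In the developing brain Wnt7a and Wnt7b, which OPCs make, are known for guiding blood vessel growth through the endothelial receptor pair Adgra2 and Reck. Wnt/β-catenin signaling within OPCs is known to hold back their differentiation.

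Expected counts, in which a read that matches several genes is divided between them, summed to 13716619 to 16417219 per library, and 3 reads corresponded to 0.183 to 0.219 CPM (counts scaled to the library total). Disc1, the targeted gene, had an RPKM (reads scaled to transcript length and library total) of 3.55 ± 0.238 in wildtype and 2.72 ± 0.240 in DISC1-Δ3 OPCs (SD, n = 3 each). By the edgeR test described below it was lower in DISC1-Δ3 OPCs (log2 fold change -0.45, adjusted p = 0.000528), also under every alternative. Per-gene values do not resolve the deleted exon. Cell type markers were examined as summed RPKM of lists and with the edgeR test described below, by which 20.4% of all tested genes were higher and 19.5% lower in DISC1-Δ3 OPCs, and no listed marker read 0 in all 6 libraries. OPC markers summed to 485 to 504 in wildtype and 607 to 632 in DISC1-Δ3 libraries, and 6 of 8 were higher and 1 lower. Microglial markers were present at much higher levels, at 6381 to 6572 against 4446 to 4600, and 6 of 6 were lower. Markers of mural cells (6 of 6 higher, 70.4 to 79.6 against 107 to 112), neurons (7 of 9 higher, 350 to 353 against 418 to 439) and choroid plexus (3 of 5 higher, 775 to 895 against 1012 to 1140) moved the other way. Of the 6 epithelial markers, 3 of the 4 tested were higher (5.26 to 5.85 against 34.5 to 36.4). Among them were Krt8 (0.88 to 1.07 against 9.73 to 11.52 RPKM) and Cdh1 (0.04 to 0.12 against 3.45 to 4.08). The keratinocyte keratins Krt5 and Krt14 stayed at or below 0.06 RPKM in every library. Cdh1 and 1 neuronal marker were below the filter of the test (RPKM of 0.5) in every wildtype library, and had to differ in order to be tested. Among markers above it in every library, 6 of 8 neuronal and 2 of 3 epithelial ones were higher. Mature oligodendrocyte markers (5 of 6 lower, 2441 to 2473 against 2255 to 2287) also summed to more than the OPC markers. So did astrocyte markers (1 higher and 3 lower of 6, 1055 to 1073 against 1086 to 1091). The lists hold different genes, so their sums do not compare numbers of cells. Endothelial markers had 3 of 6 higher, whereas 0 of 5 fibroblast and 0 of 4 ependymal markers passed the test. The part of these other cells in the ligand values below was not tested. In RNA from pooled cells, fewer cells of a type and less RNA per cell cannot be told apart.

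To show where the ligands called higher lie and what precedes them, the sequence upstream of their annotated start is given. This was done for members with a RefSeq promoter entry (GRCm38.p6, 5′ to 3′ on the gene's strand). Of the ligands called higher, Wnt6, Wnt16 and Wnt5b had such an entry. The windows of 250 bases before to 50 after each start were searched on both strands for the TCF/LEF word CTTTGAA and its variants CTTTGAT or CTTTGTA or CTTTGTT, which are bound by the transcription factors that act with β-catenin. Matches are in capitals, and bases within an annotated exon are not shown. The Wnt5b stretch lies inside the gene, downstream of its other 2 starts. Its window is the only Wnt5b window that held a word, and the other 2 are not shown.
Wnt6, chr1:74771642-74771891, plus strand: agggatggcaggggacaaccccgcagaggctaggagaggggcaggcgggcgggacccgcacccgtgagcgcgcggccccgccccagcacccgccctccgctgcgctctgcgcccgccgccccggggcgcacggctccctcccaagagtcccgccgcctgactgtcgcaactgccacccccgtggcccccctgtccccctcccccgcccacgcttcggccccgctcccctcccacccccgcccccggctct
Wnt16, chr6:22287977-22288177, plus strand: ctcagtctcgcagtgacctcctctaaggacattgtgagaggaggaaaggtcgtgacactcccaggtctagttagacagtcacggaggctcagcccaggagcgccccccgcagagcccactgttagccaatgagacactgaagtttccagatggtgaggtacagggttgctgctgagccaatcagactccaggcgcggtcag
Wnt5b, most downstream of its 3 starts, chr6:119449387-119449636, minus strand: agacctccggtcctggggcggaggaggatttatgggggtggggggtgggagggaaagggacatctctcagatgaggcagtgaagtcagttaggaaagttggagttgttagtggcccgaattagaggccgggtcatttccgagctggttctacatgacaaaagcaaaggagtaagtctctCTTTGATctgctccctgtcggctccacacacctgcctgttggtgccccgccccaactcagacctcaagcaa

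Of the 10 members, 7 matched an entry, with 9 windows in all, and Wnt5a, Wnt7b and Wnt10a had none. The single windows of Wnt6, Wnt16, Wnt4, Wnt7a and Wnt10b held none of the words. Wnt5b held CTTTGAT in 1 of its 3 windows, 71 bases before the start, and Wnt3 held CTTTGTT 19 bases after its start. Among all 32851 promoter windows of the same length, 16.9% held at least 1 of the words.

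In wildtype OPCs the ligand transcripts were dominated by Wnt7b and Wnt7a. Wnt7b (gene ID 22422; chromosome 15, 85535437 to 85582473, minus strand, GRCm38), a ligand of lung and vessel development, had RPKM values of 31.39, 26.60 and 27.63 in wildtype replicates 1 to 3. Wnt7a (gene ID 22421; chromosome 6, 91363981 to 91411363, minus strand), known for limb patterning and synapse formation, had 12.10, 10.87 and 11.66. Together they made up 86.5% ± 0.528 (SD, n = 3) of the summed RPKM of the 10 ligands. Wnt5a followed at 2.46 ± 0.0819 RPKM (SD, n = 3), and the ranges of these 3 genes did not overlap with one another or with the next gene in order. Wnt4, Wnt3 and Wnt5b came next, at means of 1.32, 0.980 and 0.853 RPKM, and neighbors in that order overlapped. Wnt6 was below them at 0.420, and Wnt10a, Wnt10b and Wnt16 were lowest, at 0.120, 0.050 and 0.0267 RPKM, again with overlap between neighbors.

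**Figure D1:**
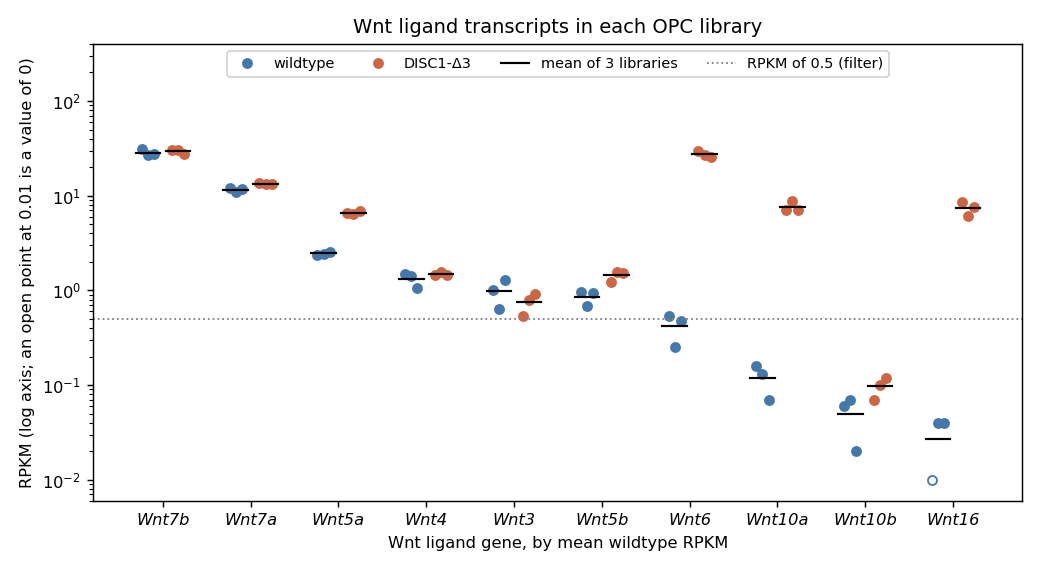
RPKM of each Wnt ligand gene in each library on a log axis, with 3 wildtype (blue) and 3 DISC1-Δ3 (orange) points per gene, black bars for group means, and a dotted line at the RPKM of 0.5 used as a filter. Wnt6, Wnt10a and Wnt16 are at 0.53 RPKM or less in every wildtype library and at 6.03 or more in every DISC1-Δ3 library, while Wnt7b overlaps between the groups.

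In DISC1-Δ3 OPCs the order was different. Wnt7b remained at the top with a mean of 29.5 RPKM, but Wnt6 came next at 27.2, and their ranges overlapped. Wnt7a came after them at 13.5 RPKM, ahead of Wnt10a, Wnt16 and Wnt5a at 7.60, 7.41 and 6.64, with overlap between neighbors among those 3. Wnt4 (1.5) and Wnt5b (1.45) overlapped, and Wnt3 (0.750) and Wnt10b (0.0967) were lowest. The summed RPKM of the 10 ligands was 50.1, 43.1 and 45.7 in wildtype libraries, against 99.3, 95.7 and 91.8 for DISC1-Δ3. Wnt7a and Wnt7b together contributed a similar amount to each sum, 40.1 ± 3.09 against 42.9 ± 1.98 RPKM (SD, n = 3 each), so that their share was 44.9% ± 0.817 in DISC1-Δ3 OPCs. Wnt6, Wnt10a and Wnt16 together went from 0.567 ± 0.137 to 42.2 ± 2.62 RPKM, and from 1.21% ± 0.212 to 44.2% ± 1.18 of the sum. These sums are descriptions, without a test.

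**Figure D2:**
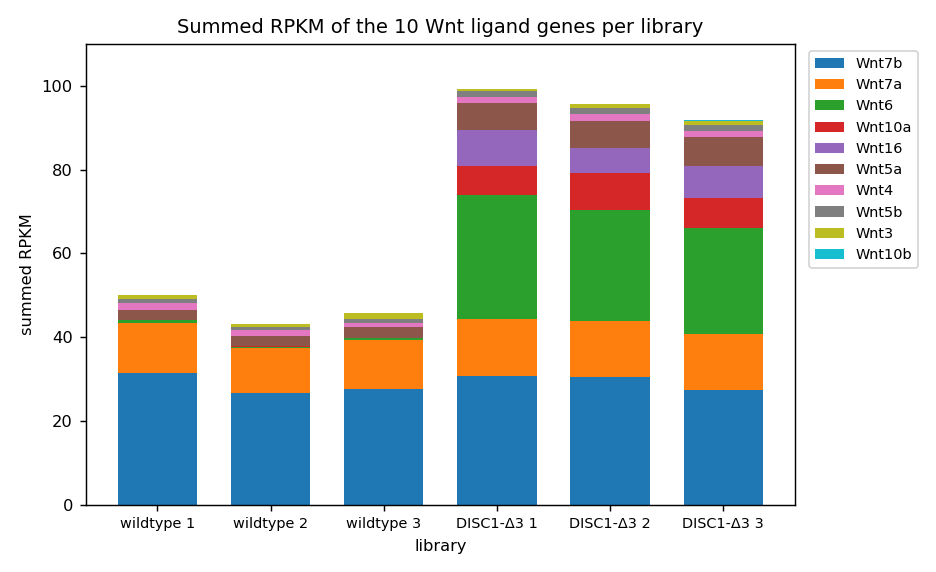
Summed RPKM of the 10 Wnt ligand genes in each of the 6 libraries, stacked by gene. The sums lie between 43.1 and 50.1 in wildtype and between 91.8 and 99.3 in DISC1-Δ3 libraries, and most of the added height is Wnt6 (green), Wnt10a (red) and Wnt16 (purple).

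The genotypes were then compared with edgeR's quasi-likelihood test over the 13792 genes that reached an RPKM of 0.5 in 3 or more libraries. At a Benjamini-Hochberg adjusted p under 0.05, 5498 genes (39.9%) were called, 20.4% higher and 19.5% lower in DISC1-Δ3 OPCs. With library totals in place of TMM scaling the called genes split differently, with 69.1% of them higher in place of 51.1%. Of the 10 ligands, 9 were tested, and 5 of these were higher, 0 lower and 4 not called. Their median log2 fold change was 0.68, against 0.0075 over all tested genes. Wnt6, Wnt10a and Wnt16 passed the filter only because of their DISC1-Δ3 libraries. Wnt10a and Wnt16 were below it in every wildtype library and had to differ in order to be tested, while Wnt6 was above it in 1. Among the 6 ligands above the filter in every library, 2 were higher, and these were Wnt5a and Wnt5b, and the median was 0.13. A log2 fold change of at least 1 was reached by 4 ligands, against 2.76% of tested genes, and 0 ligands fell by that much, against 1.06%. Of these 4 ligands, only Wnt5a was above the filter in every library. RPKM values of the genotypes did not overlap for 6 of the 9 tested ligands, all with DISC1-Δ3 higher, which 35.9% of all tested genes showed, while 16.1% showed DISC1-Δ3 lower. These 6 include Wnt6, Wnt10a and Wnt16, and those above the filter in every library were Wnt5a, Wnt5b and Wnt7a.

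Wnt6, known from surface ectoderm and from induction of the kidney, showed the largest gain in level of the 10 ligands. Wnt6 (gene ID 22420; chromosome 1, 74771892 to 74785322, plus strand) had 14, 8 and 15 reads in wildtype replicates 1 to 3, against 813, 829 and 791 for DISC1-Δ3, or 0.53, 0.25 and 0.48 against 29.55, 26.61 and 25.53 RPKM. Every DISC1-Δ3 library was far above every wildtype library. The DISC1-Δ3 replicates lay close together, while the few wildtype reads varied more in proportion. edgeR fitted a log2 fold change of 5.95 ± 0.15 (here and below ± gives the standard error of a log2 fold change) with an adjusted p = 2.70e-15. From pooled reads the ratio was 62.1, with a 95% exact interval of 44.9 to 88.4, which, like the other read intervals here, covers counting error only. Gm29539 is annotated on the opposite strand within Wnt6 and has no row of its own in the table, and since the protocol names no strand-specific step, reads of the pair cannot be told apart.

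Wnt10a, the gene next to Wnt6 and known for tooth and hair development, rose with it. Wnt10a (gene ID 22409; chromosome 1, 74791516 to 74804179, plus strand) had 4, 4 and 2 reads in wildtype libraries, against 183, 257 and 204 for DISC1-Δ3. In RPKM these were 0.16, 0.13 and 0.07 against 7.06, 8.75 and 6.98, without overlap. Its log2 fold change was 5.87 ± 0.26 (adjusted p = 6.28e-12), and the ratio of pooled reads was 60.8, with an interval of 32.9 to 127 that reflects the 10 wildtype reads. The ratios of the neighboring genes Wnt6 and Wnt10a therefore overlapped within their counting intervals, at different levels. Wnt6 made up 28.5% and Wnt10a 7.95% of the ligand sum in DISC1-Δ3 OPCs.

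Wnt16, a ligand known for its role in cortical bone, was close to undetected in wildtype OPCs. Wnt16 (gene ID 93735; chromosome 6, 22288227 to 22298522, plus strand) had 0, 1 and 1 reads in wildtype libraries, against 199, 171 and 201 for DISC1-Δ3, or 0.00, 0.04 and 0.04 against 8.57, 6.03 and 7.64 RPKM. All 3 wildtype libraries were at or under the floor of 3 reads, and all 3 DISC1-Δ3 libraries were well above it. The fit gave 7.84 ± 0.35 (adjusted p = 6.28e-12), a log2 value that depends on the prior count of the fit. That standard error is smaller than counting error on 2 wildtype reads, and understates the uncertainty. From 2 against 571 pooled reads the ratio was 269.7, with a 95% exact interval of 74.3 to 2232, so its size is poorly fixed.

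**Figure D3:**
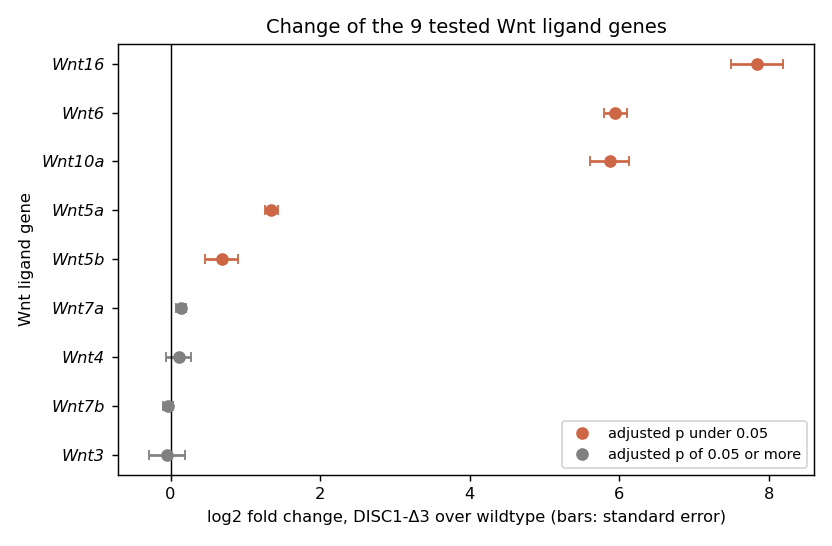
Log2 fold change of DISC1-Δ3 over wildtype for the 9 tested Wnt ligand genes, with standard errors as bars and colors for whether the gene was called. For Wnt6, Wnt10a and Wnt16 the bars are smaller than counting error. Wnt16, Wnt6 and Wnt10a lie between 5.87 and 7.84, Wnt5a and Wnt5b at 1.35 and 0.68, and the other 4 between -0.044 and 0.14.

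Wnt5a and Wnt5b, the paralogs associated with β-catenin-independent signaling, both rose by smaller amounts from levels that were already measurable. Wnt5a (gene ID 22418; chromosome 14, 28504750 to 28527448, plus strand) was at 2.39, 2.44 and 2.55 RPKM in wildtype libraries, against 6.53, 6.44 and 6.96 for DISC1-Δ3, from 140, 172 and 177 against 386, 447 and 485 reads. The groups were clearly apart, and the log2 fold change was 1.35 ± 0.09 (adjusted p = 1.70e-09). An antisense gene, Gm2670, lies within Wnt5a and has no row of its own, with the same limit of strand. Wnt5b (gene ID 22419; chromosome 6, 119432531 to 119544347, minus strand) was at 0.95, 0.68 and 0.93 RPKM in wildtype libraries, against 1.24, 1.57 and 1.54 for DISC1-Δ3, from 29, 25 and 32 against 39, 53 and 55 reads. These groups did not overlap either, and the log2 fold change was 0.68 ± 0.22 (adjusted p = 0.0198). The call of Wnt5b was lost with DESeq2 (adjusted p = 0.0813) and on leaving out wildtype replicate 2 (adjusted p = 0.0977) or DISC1-Δ3 replicate 2 (adjusted p = 0.0640), and its adjusted p ranged from 0.00966 to 0.0977 over all 15 alternatives. Fbxl14, on the other strand within Wnt5b, was lower in DISC1-Δ3 OPCs (log2 fold change -0.25, adjusted p = 0.0273).

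The ligands that were most abundant in wildtype OPCs did not pass the test. In DISC1-Δ3 libraries Wnt7b was at 30.65, 30.49 and 27.29 RPKM, within the spread of the wildtype values given above. The difference on the log2 scale was -0.033 ± 0.066 (95% interval -0.17 to 0.11, edgeR adjusted p = 0.726), and it was 0.049 when library totals set the scaling. AU022754 is annotated on the strand opposite to Wnt7b, overlaps it and has no row of its own. For Wnt7a the DISC1-Δ3 libraries were at 13.63, 13.36 and 13.36 RPKM, all above the highest wildtype value of 12.10. Such a gap in that direction is in the 35.9% of tested genes given above. Wnt7a had a fitted log2 difference of 0.14 ± 0.068 (interval -0.0035 to 0.28, edgeR adjusted p = 0.113). It passed the threshold, at a log2 fold change of 0.22 (adjusted p = 0.0143), when library totals set the scaling, and in both limma fits on RPKM. Over all tested genes the median log2 fold change was also higher there, at 0.090 with library totals and 0.075 and 0.087 with limma. That median was 0.0075 in the main fit. For the endothelial receptors of these ligands, Adgra2 was at 4.35, 4.26 and 3.44 RPKM in wildtype against 6.45, 5.79 and 5.74 in DISC1-Δ3 libraries (log2 fold change 0.52, adjusted p = 0.000184), and Reck was not called (log2 difference 0.38, adjusted p = 0.0748). Both were named after their values were seen, and endothelial marker sums also differed, at 94.4 to 98.4 against 125 to 126 RPKM.

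Wnt4, known for kidney and ovary development, did not pass the test. Wnt4 (gene ID 22417; chromosome 4, 137277489 to 137299726, plus strand) was at 1.49, 1.42 and 1.05 RPKM in wildtype libraries, against 1.47, 1.56 and 1.47 for DISC1-Δ3, with overlap. The log2 difference was 0.11 ± 0.17 (interval -0.24 to 0.46, adjusted p = 0.629).

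Wnt3, a β-catenin-activating ligand needed for the early body axis, gave different pictures in reads and in RPKM. Wnt3 (gene ID 22415; chromosome 11, 103774150 to 103817957, plus strand) had 29, 31 and 39 reads in wildtype libraries, against 23, 38 and 41 for DISC1-Δ3, and the log2 difference was -0.044 ± 0.24 (interval -0.55 to 0.46, adjusted p = 0.902). In RPKM it had 1.02, 0.63 and 1.29 against 0.54, 0.79 and 0.92, with means of 0.980 and 0.750 and overlapping groups. The transcript length implied by reads and RPKM was 2073, 2997 and 1847 bases in wildtype libraries, against 2993, 2980 and 2765 for DISC1-Δ3. For Wnt7a it stayed between 3025 and 3037 bases. Wildtype replicates 1 and 3 therefore stood apart in the length by which Wnt3 reads were divided.

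Wnt10b, the paralog of Wnt10a known from bone and fat cell development, did not pass the filter in either genotype. Wnt10b (gene ID 22410; chromosome 15, 98770712 to 98778150, minus strand) had 2, 3 and 1 reads in wildtype libraries, against 2, 4 and 5 for DISC1-Δ3, so that values of both groups were at or near the floor. In a fit without the filter the log2 difference was 0.75 ± 0.87 (adjusted p = 0.551), and a change of the size seen for Wnt10a lies outside the interval of its pooled read ratio, 0.587 to 5.70. Of the other 8 Wnt genes in the table, 7 did not pass the filter and stayed at or below 0.42 RPKM in every library, and Wnt9a, at 0.610 and 0.777 RPKM on average, was not called (log2 fold change 0.26, adjusted p = 0.389).

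The genes beside the ligands called higher were then read for the same comparison. The 2 nearest protein-coding genes on each side were taken, and they were named after their values were seen. Wnt6 and Wnt10a lie 6193 bases apart. On the side of Wnt6, Prkag3, a kinase subunit of muscle, had 0 reads in each wildtype library and 7, 10 and 4 in DISC1-Δ3 replicates. Prkag3 did not pass the filter and was not tested. Cyp27a1, a sterol hydroxylase, fell by 0.998 on the log2 scale (adjusted p = 2.87e-07). On the side of Wnt10a, Cdk5r2, a neuronal Cdk5 activator, rose by 0.36 (adjusted p = 0.00122). Around Wnt16, Fam3c and Ing3 were not called (log2 fold changes 0.16 and 0.11), and Cped1 did not pass the filter. Ptprz1, 577.0 kb from Wnt16 and also the OPC marker counted as lower above, fell by 0.35 (adjusted p = 9.16e-05). Around Wnt5a, Erc2 rose by 0.56 (adjusted p = 0.000355) and Cacna2d3, a calcium channel subunit 377.5 kb away, by 1.25 (adjusted p = 8.97e-06), while Ccdc66 was not called and Lrtm1 did not pass the filter. Around Wnt5b, Adipor2 and Erc1 were not called (log2 fold changes 0.015 and 0.068) and Cacna2d4 did not pass the filter. Of the Wnt genes next to the other ligands, Wnt1, the nearest gene above Wnt10b, had 0 to 2 reads per library, and Wnt9b, the nearest gene below Wnt3, had 3 to 9. Among the flanking genes that were tested, the highest log2 fold change besides those of Wnt6 and Wnt10a was the 1.25 of Cacna2d3.

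The ligands were set beside other genes of the pathway, in lists written from general knowledge with earlier results of these data known. Genes of ligand secretion and lipid handling had 2 higher and 2 lower of 10, with a median of -0.08 on the log2 scale, and these counts are near the shares of all tested genes (20.4% higher and 19.5% lower). Porcn had 23.5 ± 0.333 against 23.3 ± 1.77 RPKM (SD, n = 3 each; log2 difference -0.063, adjusted p = 0.478, and 0.019 with library totals), and Wls 33.3 ± 1.17 against 33.2 ± 1.38 (log2 difference -0.09, adjusted p = 0.193). Notum, which inactivates ligands, rose from 5.97 ± 0.165 to 200.3 ± 2.33 RPKM (log2 fold change 5.02, adjusted p = 2.05e-20). Snx3, the gene of this list with the highest level, was not called (log2 fold change 0.10, adjusted p = 0.146).

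Receptors and co-receptors had 4 higher and 5 lower of 17 tested genes and a median of 0.08, with counts close to those shares. Lrp5, the most abundant of them, fell by 0.41 on the log2 scale (adjusted p = 5.73e-06), from 33.4 to 26.6 RPKM. When library totals set the scaling, 6 in place of 4 receptors were higher and 3 in place of 5 lower. For genes of β-catenin-independent routes, 7 in place of 5 were higher and 3 in place of 5 lower. Of all called genes, 69.1% were then higher in place of 51.1%. Secreted antagonists and agonists had 9 higher and 1 lower of 14 tested genes, with a median of 1.56. Of these, 4 were below the filter in every wildtype library and had to differ in order to be tested, and the 10 above it in every library had 5 higher and 1 lower and a median of 0.37. The lower gene was Igfbp4, a binding protein that also antagonizes Wnt (log2 fold change -0.17, adjusted p = 0.00632), whose call was lost when library totals set the scaling. Feedback targets of Wnt/β-catenin signaling had 13 higher and 0 lower of 16, with a median of 1.04, and the 14 above the filter in every library had 11 higher and 0 lower and a median of 0.73. The most abundant of them, the Wnt antagonist Apcdd1, rose from 44.6 ± 0.818 to 174.4 ± 5.28 RPKM. Genes of β-catenin-independent routes had 5 higher and 5 lower of 21 and a median of -0.0068, with counts near the shares of all tested genes. Rhoa, a small GTPase and the most abundant of these, was not called (log2 difference -0.048, adjusted p = 0.377, and 0.034 when library totals set the scaling).

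**Figure D4:**
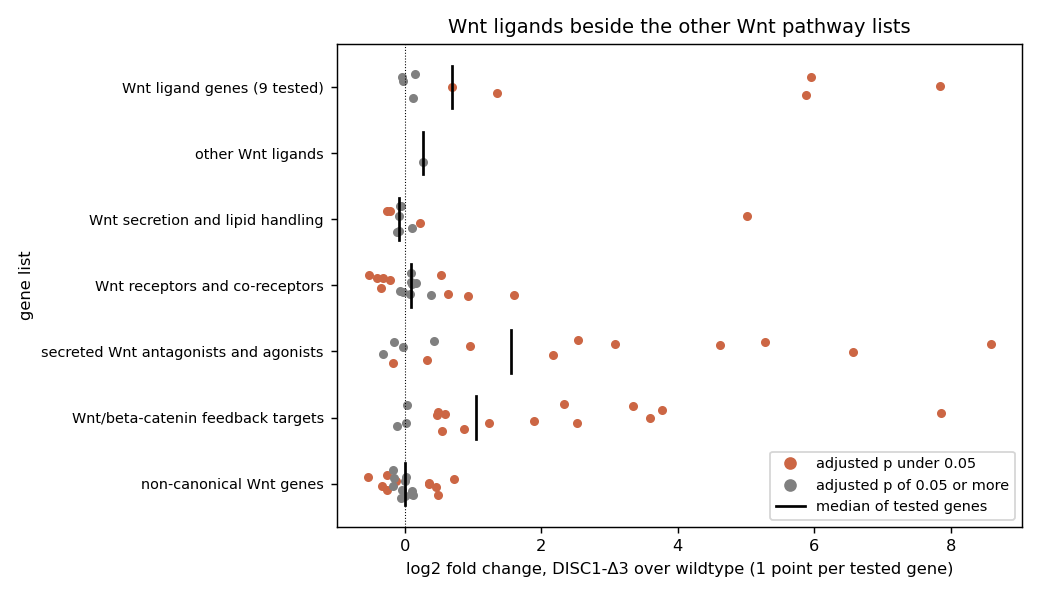
Log2 fold change of DISC1-Δ3 over wildtype for each tested gene of the Wnt ligand genes and of 6 other Wnt pathway lists, with medians as black bars and colors for the adjusted p. The ligands have a median of 0.68, the secreted antagonists and agonists 1.56 and the feedback targets 1.04, each with genes that passed the filter only through DISC1-Δ3 libraries (0.13, 0.37 and 0.73 over genes above it in every library), while the secretion genes, the receptors and the non-canonical genes have medians between -0.08 and 0.08.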

How the data were processed

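RNA-seq libraries of freshly isolated OPCs, 3 per genotype, were read as single-end 50-base reads on a BGISEQ instrument. The authors deposited 1 table with expected counts and RPKM per gene and library. The submitters' processing notes name Bowtie2 2.2.5 and mm10, and the paper names DESeq2. The counting tool and annotation are not given in the sources used here. The RPKM deposited by the authors had no stated scaling between libraries, and their 4 columns of group averages were not used. Expected counts were rounded, scaled by TMM factors and tested with edgeR 4.0.16 (R 4.3.3, quasi-likelihood, genotype only), two-sided, with Benjamini-Hochberg adjustment over 13792 genes and a threshold of 0.05. The standard error was the log2 fold change divided by the square root of F, and intervals used the degrees of freedom of the fit. For Wnt6, Wnt10a and Wnt16, with few wildtype reads, this standard error is smaller than counting error. Nothing in the labels says that libraries came from separate animals, so p-values measure the spread between these libraries. Chi-square tests of counts gave 1.80 to 5.39 per degree of freedom between replicates, more than counting noise gives. Library totals and read ratios limit precision as given beside the values. Read ratios used totals scaled by TMM factors and exact binomial intervals at 95%.

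Members, lists and alternatives were chosen with earlier results of these data known. Named genes were the 10 ligands, Disc1, Porcn, Wls, Notum, the gene of highest mean RPKM in each pathway list, and the Wnt genes next to a member, besides those stated to be named after their values were seen, and the markers Krt5, Krt14, Krt8 and Cdh1, also chosen after their values were seen. The 10 ligands and 6 pathway lists were described by counts and medians, without set tests. Positions are those of GENCODE vM21 (GRCm38, the mm10 assembly), and promoter windows those of RefSeq. Alternatives were library totals, median-of-ratios scaling, no filter, an RPKM of 1, filterByExpr, DESeq2 1.42.0, limma 3.58.1 on log2(RPKM + 1) and log2(RPKM + 0.1), the replicate number as a block, and each library left out. The fits were tested on simulated data.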

Additional observations from a re-analysis of the deposited data

How the results depend on the processing

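Of the ligands, 5 were called higher, and 4 to 6 were under the alternatives, while 0 were called lower under any of them. In the main fit 20.4% of all tested genes were higher and 19.5% lower. Wnt6, Wnt10a, Wnt16 and Wnt5a stayed called and higher in all 15 alternatives, with log2 fold changes of 4.32 to 6.13, 2.93 to 6.10, 3.02 to 8.15 and 1.14 to 1.43. Of these, Wnt6, Wnt10a and Wnt16 passed the filter only through DISC1-Δ3 libraries, and most alternatives keep that filter. Their calls there are therefore no independent support. Every change of direction was in a gene that was not called. With library totals, Wnt3 was at 0.039, Wnt7b at 0.049, Porcn at 0.019 and Rhoa at 0.034. The median of all tested genes was then 0.090 in place of 0.0075. With limma on log2(RPKM + 1) and log2(RPKM + 0.1), Wnt7b was at 0.047 and 0.048 and Rhoa at 0.027 in both. On leaving out each library in turn, Wnt3 ranged from -0.17 to 0.099 (0.051 without wildtype replicate 3, while the highest left out DISC1-Δ3 replicate 1), Wnt4 from -0.034 (without wildtype replicate 3) to 0.20, and Wnt7b from -0.081 to 0.036 (the highest left out wildtype replicate 1, and it was 0.024 with DISC1-Δ3 replicate 3 left out). The cause was not tested.

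Pathway counts moved with the setting, and so did the counts over all tested genes. Among all tested genes, library totals gave 4117 higher and 1841 lower, in place of 2807 and 2691. The limma fits gave 3983 and 3965 higher and 1774 and 1763 lower. With library totals, the number higher was 3 in place of 2 for secretion, 6 in place of 4 for receptors, 10 in place of 9 for antagonists and agonists and 7 in place of 5 for non-canonical genes, and the number lower was 1 in place of 2 for secretion, 3 in place of 5 for receptors, 0 in place of 1 for antagonists and agonists and 3 in place of 5 for non-canonical genes; both limma fits gave 1, 3, 0 and 2. Without a filter 1 other ligand, Wnt2, was called higher in place of 0, and filterByExpr gave 1 lower feedback target in place of 0. On leaving out each library, 1 to 2 secretion genes were higher (1 without wildtype 2, wildtype 3 or DISC1-Δ3 1) and 1 to 2 lower (1 without wildtype 1 or DISC1-Δ3 2), 3 to 5 receptors lower (3 without wildtype 1 or 2), 0 to 1 feedback targets lower (1 without DISC1-Δ3 3) and 3 to 7 non-canonical genes lower (3 without DISC1-Δ3 2). The Wnt3 and Wnt9a fits had no value at an RPKM of 1, since neither gene passed.

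Correlations of deviations between libraries were too small to decide whether the replicate numbers pair the samples. Same-numbered libraries had correlations of 0.0444, 0.0263 and -0.0288, and the other pairs lay between -0.0526 and 0.0273. Wildtype replicates 1 and 2 went best with the same-numbered DISC1-Δ3 library, and wildtype replicate 3 with DISC1-Δ3 replicate 2 (0.0273). With the replicate block, 2774 genes were higher and 2655 lower, in place of 2807 and 2691, and 5 ligands were higher and 0 lower, with Wnt5b at an adjusted p of 0.0359 from edgeR. Wnt16, Wnt10a and Wnt10b rest on few wildtype reads, so depth limits the size of their changes.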
